A study of Drosophila melanogaster with 4 samples.

Results

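A set of 9 genes is followed here in a map of RNA polymerase II, 5 of the Polycomb side (ph-p, ph-d, Sce, Scm and esc) and 4 of the Trithorax side (trx, ash2, osa and mor). They were taken by name from a gene table of Drosophila melanogaster that places 10338 genes on the chromosome arms 2L, 3R and X. The map was made by chromatin immunoprecipitation and sequencing (ChIP-seq) from Kc167, a female embryo-derived cell line that the labels give the genotype se/e and a late embryonic stage. The cells were fixed with 1.8% formaldehyde for 10 min, and the chromatin was held for 15 h with a rabbit polyclonal antibody against the polymerase tail repeat phosphorylated on serine 5. The series has 2 ChIP libraries and 2 libraries of input DNA from this line, and no condition is compared. The labels do not say whether the replicates came from separate cultures, and the spread between them may be technical.

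Polycomb and Trithorax proteins hold developmental genes in an off or an on state through many cell divisions. Polycomb repressive complex 2 (PRC2) methylates a lysine of histone H3, and PRC1 binds that mark, compacts chromatin and ubiquitinates histone H2A. Trithorax proteins oppose them, some as histone methyltransferases and some as parts of the Brahma (BAP) complex, which moves nucleosomes. The homeotic genes, which set segment identity, are their classical targets. Serine 5 phosphorylation of the polymerase tail marks the enzyme at the start and along the first part of a transcribed unit, so a region rich in this form over a regulator gene places early-phase polymerase there. How much RNA or protein the gene makes was not measured.

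The values are the authors' lists of enriched regions, 1 for each ChIP replicate with 4874 and 4822 regions, and 1 for the replicate set with 5074 regions, called the combined list here. Each of these regions has a position on FlyBase release 5 and a score above 0 on a scale the files do not name. The authors also listed regions scored below 0, typed as depleted, which these counts leave out. The score and the rank it gives, counted from 1 for the highest, are the authors' values and describe regions within a list. Read counts and depth are unknown. Input DNA was not used here for want of its own list, so a level in input cannot be set beside these values. Gene positions were release 6 positions moved by 1 constant per arm, and the fit of that step was checked on all protein-coding genes. In the 5 windows of 5 Mb that hold the 9 genes, between 41.0% and 50.0% of gene ends lay inside a combined region at the stated constant, against 13.3% to 20.9% when the genes were moved by 100 kb to either side. In these windows the shift with the highest share was at most 500 bp away, so statements that turn on less than 500 bp are uncertain. The gene table carries no strand. Each gene therefore has a low-numbered and a high-numbered end, and where both ends lie in regions the outermost start site does too, whichever end it is.

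All 9 genes carried the Ser5-phosphorylated polymerase at 1 end or both. In the combined list 9 of 9 had at least 1 end inside an enriched region, against 57.8% of 8039 protein-coding genes of the 3 arms, and the count was 9 in each replicate list too, where the background was 56.3% in both. Both ends lay in regions for 6 genes (ph-p, Sce, Scm, esc, osa and mor), with a background of 31%. The count was 5 in replicate 1 and 6 in replicate 2, with a background of 27.5% in each. With the genes moved up by 500 bp it was 4, since the low ends of Scm and osa then fell outside regions. The other 3 genes, ph-d, trx and ash2, had 1 end in a region and 1 outside. At least 90% of the gene was covered for 4 of the 9, against 25.1% of all genes, for 2 in replicate 1 against 21.2% and for 3 in replicate 2 against 21.9%. Of the 4757 protein-coding genes that a combined region overlapped, 2017 were covered to at least 90%. In the combined list the median share covered was 86.0% over the 9 genes and 16.6% over all, or 71.0% over the genes that a region overlapped, as it did each of the 9. The 9 genes were chosen with earlier results of these data known, and these counts are given as a description without a test.

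The share of the gene covered ran from nearly bare to complete. Over the replicate lists, esc and Sce were covered to 100% in each, Scm to 80.2% ± 14.1, ash2 to 77.7% ± 1.33, mor to 71.0% ± 14.2, ph-p to 57.5% ± 10.2, osa to 44.7% ± 3.47, ph-d to 33.1% ± 2.08 and trx to 5.51% ± 0.0811 (SD, n = 2). The replicate values of Scm, ash2 and mor overlapped, as did those of mor and ph-p, and these neighbours in the order cannot be told apart. Those of ph-p, osa, ph-d and trx did not overlap each other. With 2 replicates no test of these gaps was made.

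**Figure D1:**
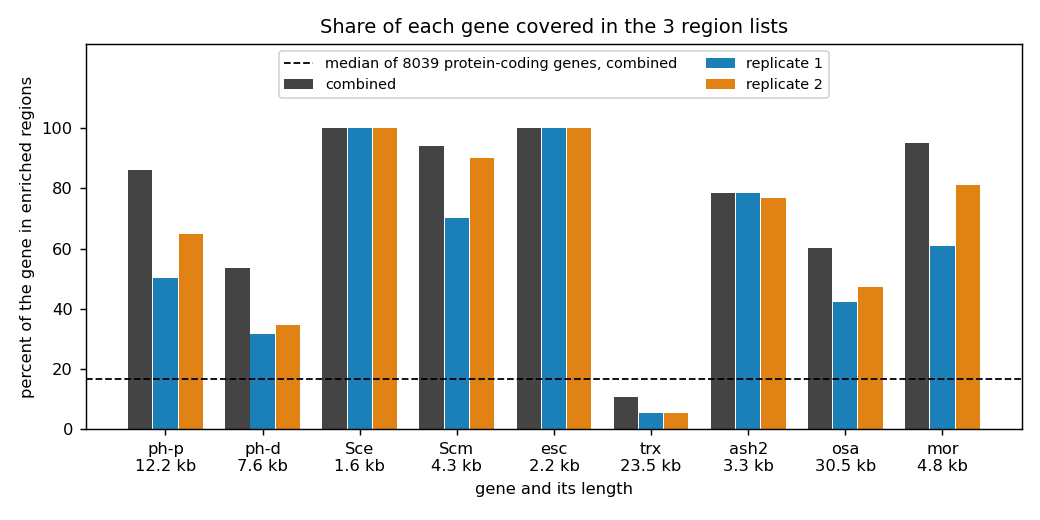
Percent of each gene (y axis) inside enriched regions, for the 9 genes with their lengths (x axis), in the combined list and in the 2 replicate lists; the dashed line is the median of 8039 protein-coding genes in the combined list, 16.6%. The bars of esc and Sce reach 100% in each list, and the bars of trx lie below the dashed line.

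The ph locus on X carries a pair of adjacent genes, ph-d and ph-p, both coding for Polyhomeotic proteins, the PRC1 subunits whose SAM domain lets complexes polymerise. Both had their strongest region over the high-numbered end. For ph-d this was chrX:2014448-2018864, 4.42 kb wide, of which 2.87 kb lay in the gene and 1.54 kb beyond its high end. Its score was 2.97 in the combined list, rank 246 of 5074, and the matching regions scored 3.10 in replicate 1 and 2.96 in replicate 2. It was the highest-ranked region over any of the 9 genes in each list. A second, weak region inside ph-d, scored 0.51, was called for the replicate set and in neither single replicate. The low-numbered end of ph-d, which lies 25 bp from its neighbour csw, was outside all regions in the 3 lists.

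For ph-p the strongest region was chrX:2027782-2033126, 5.34 kb wide, with a score of 2.66 and rank 467, and the replicate lists gave 2.79 and 2.76. It covered the last 4.62 kb of the gene at its high end and ran 0.722 kb beyond. Weak regions lay along the rest of ph-p. In the combined list 3 further regions with scores of 0.26, 0.52 and 0.48 brought the covered share to 86.0%. The replicate lists held 2 weak regions each. One of them crossed the low-numbered end in both lists, with scores of 0.40 and 0.26. The other lay from 1.89 to 3.45 kb of the gene in replicate 1 and from 3.63 to 6.22 kb in replicate 2, and these 2 stretches shared 0 bp. The weak cover of the ph-p interior was thus not placed on the same bases by the replicates, while the strong region at the high end was. The files do not say how reads that match both ph genes were placed, and the part of such reads in these values was not tested.

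**Figure D2:**
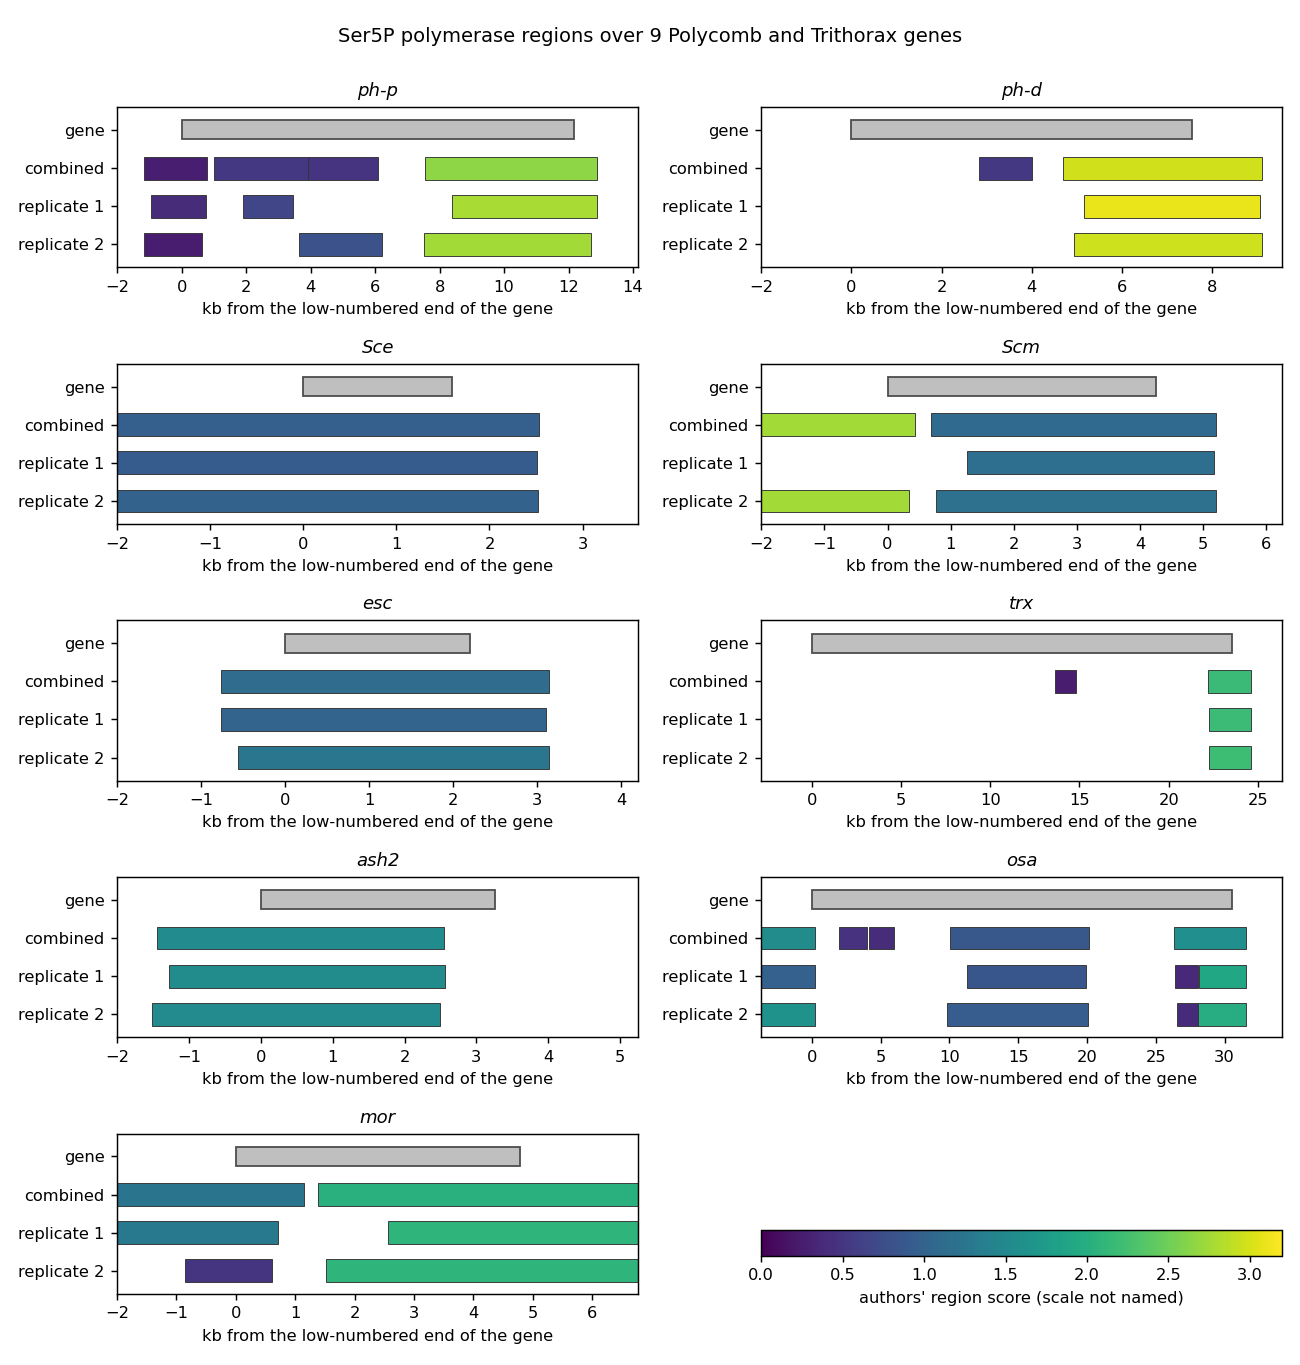
Regions over the 9 genes in the combined and both replicate lists. The x axis of each panel is the distance in kb from the low-numbered end of the gene (grey bar), the rows are the lists, and colour is the authors' region score; regions of Sce, Scm, osa and mor run on past the panel edge. The brightest bars, scored 2.96 to 3.10, lie over the high end of ph-d, and trx is bare except near its high end and for 1 weak region of the combined list.

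Sce codes for the RING-finger subunit of PRC1, the catalytic part of its ubiquitin ligase. The whole gene, 1.60 kb long, lay in the single region chr3R:23502386-23508686, which was 6.30 kb wide and scored 0.96, with counterparts at 0.92 and 1.01 in replicates 1 and 2. Its combined rank of 3376 put it in the weaker part of the list, whose median score was 1.37. The region ran 3.77 kb past the low end of Sce and took in ends of 3 other protein-coding genes, unc80, Hsdl2 and CG12883. CG12883 is the neighbour of Sce on that side and ends 94 bp from it. Which of these genes the polymerase in this region transcribes cannot be told apart.

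Scm (Sex comb on midleg), a SAM-domain protein that binds PRC1, was covered by 2 combined regions. The larger part, 3.56 kb or 83.7% of the gene, lay in chr3R:5459774-5464280, which scored 1.10, against 1.14 and 1.18 for its counterparts in replicates 1 and 2. The combined region ran 0.947 kb past the high-numbered end and took in an end of Dh44, which lies 570 bp from Scm. A much stronger region, chr3R:5452136-5459518 with a score of 2.76 and rank 390, reached 0.438 kb into the low-numbered end of Scm. That region is 7.38 kb wide and takes in ends of CG9427, CG8319, Calr and SpdS, and SpdS shares 315 bp with Scm. In replicate 2 the strong region again reached into Scm, with a score of 2.75. In replicate 1 it scored 2.97 and stopped 437 bp short of the gene, so the low end of Scm was not covered there and the highest score over the gene was the 1.14 of the weaker region. The weaker region was the one over most of Scm in the 3 lists.

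The PRC2 member of the set is esc (extra sex combs), a WD-repeat subunit that binds methylated histone H3 and stimulates the enzyme. The gene is 2.20 kb long and lies inside the bounds of the much larger gene Pde1c, 13.0 kb from the nearer end of that gene. A single region, chr2L:11826442-11830340, covered all of esc in the 3 lists and passed its ends by 0.762 and 0.935 kb. It scored 1.12 in the combined list, with 1.02 and 1.25 in replicates 1 and 2, and was 3.90 kb wide. No end of another protein-coding gene lay in it, and Pde1c as a whole was covered to 5.78%. The esc region lies within Pde1c and is part of that share. Most of the host gene was thus bare while esc was covered from end to end. Pde1c is 114.4 kb long, and the median share of overlapped genes over 20 kb was 6.03%.

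On the Trithorax side, trx codes for a histone methyltransferase of the MLL type and ash2 for a subunit shared by such methyltransferase complexes. The 2 genes differed in how they were covered. In trx, 23.5 kb long, a single region at the high-numbered end, chr3R:10111306-10113674, was found in the 3 lists. It was 2.37 kb wide, entered the gene by 1.32 kb and passed its end by 1.05 kb. Its combined score was 2.16 (rank 1036), replicates 1 and 2 gave 2.18 and 2.19, and the covered share of trx was 5.57% and 5.45% in the replicates. The combined list added 1 weak region of 1.17 kb inside the gene, scored 0.26, that neither replicate list held. The low-numbered end lay outside regions in each list, and its neighbour CG14839, which overlaps trx by 10 bp, was at 0%.

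The ash2 gene is 3.25 kb long and was covered from its low-numbered end over 2.55 kb in the combined list. The region, chr3R:20474398-20478396, scored 1.53, with 1.54 and 1.52 in replicates 1 and 2, and ranked 2188. It passed the low end by 1.45 kb, across the 81 bp that separate ash2 from puf, and took in an end of puf, which was covered to 9.26%. The last part of ash2 at the high-numbered end was bare in the 3 lists, and a separate region began 606 bp beyond that end in the combined list. CG31125, which overlaps ash2 by 6 bp, was covered to 57.9% in the combined list. 

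The BAP complex is represented by osa, its DNA-binding signature subunit with an ARID domain, and by mor (moira), a SWIRM- and SANT-domain core subunit. The 30.5 kb of osa, the longest of the 9 genes, held 5 combined regions. The one at the high-numbered end, chr3R:13539876-13545096, scored 1.58 and was divided into a weak and a strong part in both replicates, the strong parts scoring 1.91 and 2.00. In the middle of the gene a region of 10.1 kb, chr3R:13523610-13533710, scored 0.87, with 0.85 and 0.93 in the replicates, where it was 8.63 and 10.2 kb wide. No end of another protein-coding gene lay in it. Of the other 3 regions, 2 weak ones (0.45 and 0.40) were in neither replicate list. The last, chr3R:13506762-13513812, crossed the low end and had only 0.273 kb in osa, while it took in ends of alt, CG7655, CG31251, CG31360 and CG31249.

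Cover of mor joined that of its neighbours on both sides. The region chr3R:11795240-11810858, 15.6 kb wide, covered 3.40 kb of mor and ran 12.2 kb past its high-numbered end, over the whole of Hel89B, which begins 384 bp away. Its score was 2.03, with 2.09 and 2.08 in the replicates, and 97 of the 5074 combined regions were at least as wide. At the low-numbered end, chr3R:11788392-11795002 covered 1.15 kb of mor and took in ends of 4 other genes, among them Rbf2, which overlaps mor by 5 bp. The gap between the 2 regions inside mor was 237 bp when replicates were combined, and 1865 bp and 906 bp wide in replicates 1 and 2. This gap set the covered share of mor, which was 95.0% for the combined regions and 61.0% and 81.0% for replicates 1 and 2.

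Set side by side, the 9 genes differed in whether a region over them also held an end of another gene. For 4 genes (ph-p, ph-d, esc and trx), no combined region over the gene held an end of another protein-coding gene. For the other 5 (Sce, Scm, ash2, osa and mor) at least 1 did. The esc region still lies inside the bounds of Pde1c. Of these 5, osa is included only through the region that enters it by 0.273 kb, less than the 500 bp limit of the placement. The share of all genes with such an end in their regions is not given, so the split describes the 9 alone. The highest-scoring regions ranked from 246 (ph-d), 390 (Scm) and 467 (ph-p) to 3084 (esc) and 3376 (Sce) of 5074. The rank of Scm rests on the 0.438 kb by which a region shared with its neighbours enters the gene, less than the 500 bp limit of the placement. In replicate 1, where that region stopped short, the highest-scoring region over Scm ranked 3138 of 4874. The regions of ph-d and ph-p were within the first 500 in each list, and those of esc and Sce were the lowest of the 9 in the combined list. Those of trx, mor, osa and ash2 ranked 1036, 1216, 2080 and 2188, between these. Score and width did not order the genes alike. The trx region was the narrowest of the highest-scoring regions over the 9 genes, below the 2.73 kb median of all combined regions, and the mor region was the widest.

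**Figure D3:**
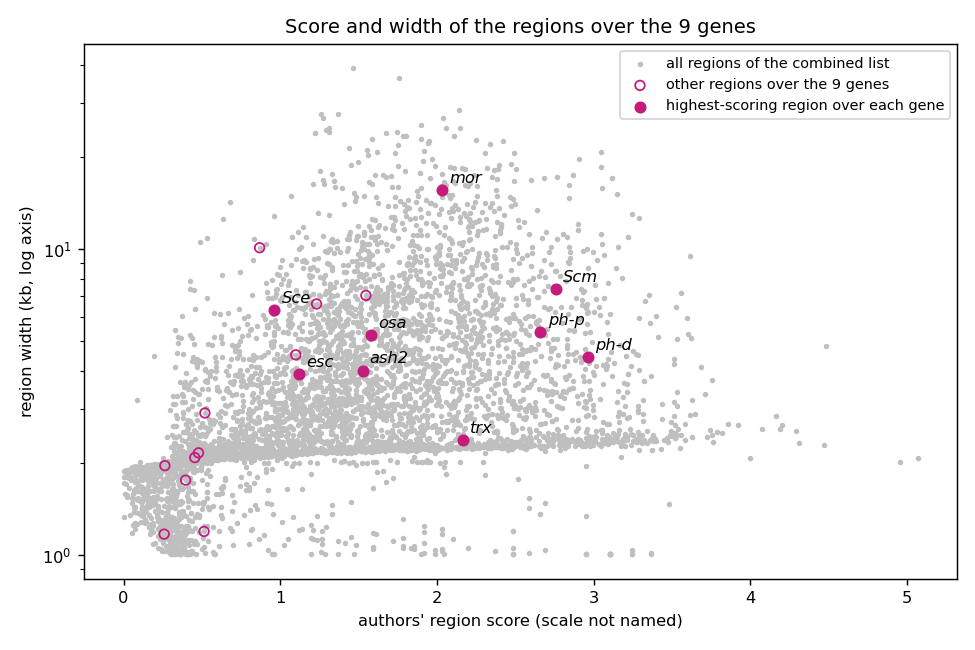
Score (x axis, authors' scale) and width (y axis, kb, log axis) of the 5074 regions of the combined list (grey), with the highest-scoring region over each of the 9 genes filled and named and the other 11 regions over them as open circles. The ph-d, Scm and ph-p regions lie to the right at scores of 2.66 to 2.97, trx lies low at 2.37 kb and mor high at 15.6 kb.

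Among all genes, short ones were more often covered from end to end. Of the protein-coding genes up to 5 kb long, 31.2% were covered to at least 90%, against 9.12% of those over 5 and up to 20 kb and 0.826% of those over 20 kb. The 5 members up to 5 kb (esc, Scm, Sce, mor and ash2) had a median share of 95.0%. The median of all genes in this class was 31.1%, and 100% among those that a region overlapped. Among genes over 20 kb that a region overlapped, the median share covered was 6.03%. The long members lay far from each other, trx with 10.6% and osa with 60.3% in the combined list. In that list both lay above that median. The share of trx was 5.61% without its weak interior region (scored below 1), which neither replicate list held. No median without regions scored below 1 is given, so the 5.61% has no like value beside it. Genes over 6 kb were also split into 2 kb at each end and the interior. The interior of trx was covered to 5.97% in the combined list and 0% in both replicates, and that of osa to 60.6%, 40.2% and 45.8%. Of 1132 such genes touched by a region within 2 kb of an end, 51.1% had a bare interior and 17.1% had an interior covered to at least 50%. The interior of ph-p was covered to 81.9% in the combined list, but to 39.7% and 64.2% in the replicates, and that of ph-d to 57.9%, 11.0% and 17.3%.

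How far the replicates called the same bases differed between the 9 genes, and it was lower over them together than over all protein-coding genes. Over the 9 genes together, 78.0% of the bases called in any replicate were called in both, against 92.0% over all protein-coding genes. The share was 100% in esc and Sce, 97.9% in trx, 97.6% in ash2 and 91.5% in ph-d. It was 87.3% in osa, 77.9% in Scm, 71.1% in mor and 46.3% in ph-p. Of the 20 combined regions over the 9 genes, 15 were met by a region in both replicates, 1 in a single replicate and 4 in neither. The 4 scored between 0.26 and 0.51. A low score alone did not set a region apart, since the lowest of the 15 scored 0.26. The same counts over all combined regions are not given, so these cannot be called high or low for the list.

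Other genes of the same pathways also had polymerase at their ends. Of 22 listed, 21 lay on these arms. In the combined list 21 of 21 had at least 1 end in a region, with a background of 57.8%. The median share covered of these 21 genes was 65.1% (39.9% and 55.1% in replicates 1 and 2). In the combined list it was 16.6% over all protein-coding genes, and 71.0% over those that a region overlapped, as it did each of the 21. On the Polycomb side, 7 of 7 were touched and 2 were covered to 100%, namely escl, the paralog of esc, and Caf1-55, a histone-binding subunit of PRC2 and of other complexes. Their regions scored 1.31 and 2.17. On the Trithorax side, 14 of 14 were touched, and 5 were covered to 100% in the combined list. These were the BAP subunits Snr1, Bap60 and Bap111, with scores of 1.71, 1.65 and 2.37, and the methyltransferase-complex subunits wds and Dpy-30L1, with 1.94 and 1.54. They are 2.67 kb long or shorter. At least 90% of the gene was covered for 8 of the 21 pathway genes, against 25.1% of all genes and 31.2% of those up to 5 kb. Of the 4757 protein-coding genes that a combined region overlapped, 2017 were covered to at least 90%. Among genes up to 5 kb that a region overlapped, the median share covered was 100%. In replicate 2, Snr1 was covered to 71.7% and wds to 98.9%. The subunits of the related PBAP complex, which contains mor but not osa, were covered to 45.5% (polybromo) and 93.9% (e(y)3) in the combined list. For e(y)3 the replicates gave 27.2% and 61.6%. The lowest shares were those of Ino80, a nucleosome remodeller, with 3.23%, corto, a chromodomain protein, with 14.3%, and Kdm5, a histone demethylase also called lid, with 26.7%. The 34.7 kb gene tara had 1 end in a region in the combined list and in replicate 2, and 0 in replicate 1.

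The 8 homeotic genes of 3R, targets of both groups, stood at the other end. In each of lab, pb, Dfd, Scr, Antp, Ubx, abd-A and Abd-B, 0% of the gene was covered in the 3 lists. These genes are 10.6 to 103.0 kb long. A region overlapped 71.6% of all genes over 5 and up to 20 kb, the class of Dfd and lab, and 68.1% of those over 20 kb. The contrast between the regulators and the homeotic genes is a description of these lists, and no test was attached to it.

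**Figure D4:**
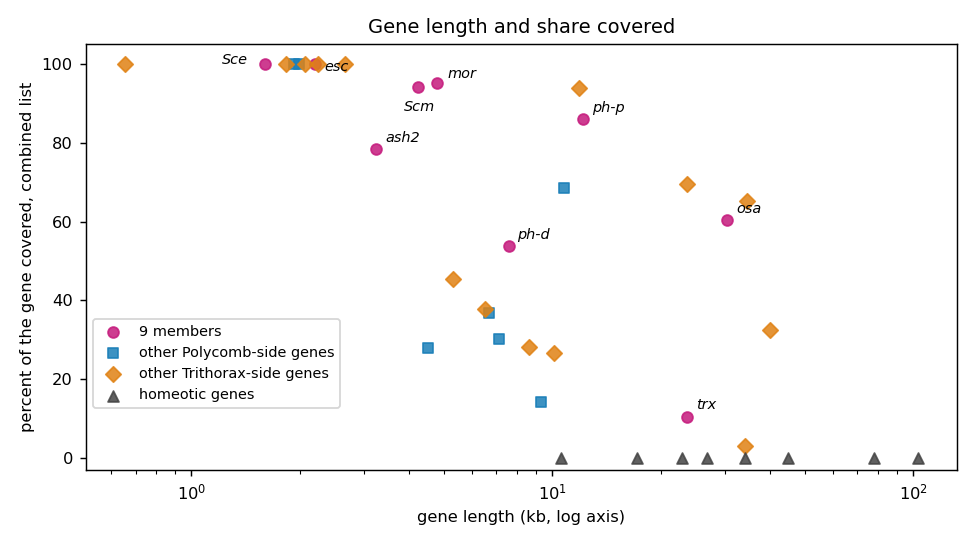
Percent of the gene covered in the combined list (y axis) against gene length (x axis, kb, log axis) for the 9 members, 7 other Polycomb-side genes, 14 other Trithorax-side genes and 8 homeotic genes, 1 point a gene. The regulators up to 2.67 kb long lie at 100%, trx (10.6%) and osa (60.3%) stand apart at similar lengths, and the 8 homeotic genes lie at 0%.

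Kc167 cells are known for blood-cell features, and the same lists were read for marker genes. Of 7 genes of blood cells and basement membrane, 5 were overlapped by a combined region, with a background of 59.2% (srp, ush, Col4a1, vkg and LanB1, with combined scores of 2.46 to 3.05), while NimC1 and He were at 0% in the 3 lists. Of other cell types, 0 of 3 muscle genes and 1 of 3 neuron genes were overlapped, the latter elav with 8.78% of the gene, and both germ-line genes used, vas (44.6%) and bam (13.7%). The part of these cells or of neighbouring genes in the values of the 9 regulators was not tested.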

How the data were processed

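ChIP-seq of the Ser5-phosphorylated polymerase was done in Kc167 cells. The submitters' processing notes name Bowtie 0.12.7, and positions are those of FlyBase release 5, per the file headers. How regions were called and thresholded, against which control, and how replicates were joined is not stated in the labels or headers. The authors deposited a score for each region without naming its scale, and it was used to rank and describe regions within a list. Regions scored above 0 were used.

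Genes came from the RefSeq table of Release 6 plus ISO1 MT and were placed on release 5 by subtracting 4174278 on 3R, 105967 on X and 0 on 2L. Windows of 5 Mb were kept where the share of protein-coding gene ends inside combined regions was highest within 500 bp of these constants. Of 16 windows, 15 were kept, and 159 genes at the centromeric side of X were left out. The table has no strand, so both ends of a gene were used where start sites had been planned. Transcripts starting inside a gene were not placed. Covered share is bases in regions over gene length, and overlap needed 1 bp. Main values are from the combined list and the mean ± SD is over the 2 replicate lists.

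The members and lists were chosen with earlier results of these data known. All 9 members are named. Of the other pathway genes, those with the 3 highest (7 were tied at 100%) and 3 lowest shares and partners in a complex are named, and tara was added after its values were seen. Rbbp5 lies on an arm without a constant and nos was not analysed here. The planned promoter motifs were not searched. The overlap code was tested on simulated data. Python 3.11.15, numpy 2.4.6, pandas 2.3.3 and matplotlib 3.10.9 were used.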

Additional observations from a re-analysis of the deposited data

How the results depend on the processing

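The count of genes with at least 1 end in a region was 9 under each alternative except a score of at least 1, where it was 8 (Sce, scored 0.96, was lost), and the count with both ends in regions went from 4 to 6. The median share covered was 86.0% in the combined list and ran from 61.0% to 76.8% when a replicate was left out. It was 59.0% with the bases in both replicate lists and 38.0% with a score of at least 1. It rose to 93.8% with genes moved down by 500 bp and to 88.1% with regions closer than 500 bp merged. The number of genes covered to at least 90% was 4, was 2 to 3 with a replicate left out and 2 with the bases in both lists. It was 3 with a score of at least 1 and 5 with genes moved down by 500 bp. The share of all genes with at least 1 end in a region was 56.3% with either replicate left out (56.26% to 56.30%), 55.7% with the bases in both lists, 48.5% with a score of at least 1, 58.1% with regions scored below 0 also taken, 57.3% and 57.2% with genes moved up and down by 500 bp and 59.1% with a region within 250 bp of the end. For both ends it was 27.5% with either replicate left out (27.45% to 27.53%), 26.1%, 25.0% and 31.0% under the first 3 of those settings, 31.1% with regions closer than 500 bp merged and 34.1% within 250 bp. The cause of these moves was not tested beyond what each setting itself takes away or adds. Among single genes, the covered share of osa fell to 14.6% and that of Sce to 0% with a score of at least 1. The share for ph-p ran from 36.4% to 88.1%, for trx from 5.45% to 12.7%, and for esc it was 100% throughout. That of ash2, 78.4% in the combined list, was 63.0% and 93.8% with genes moved up and down by 500 bp. Merging widened the highest-scoring region of ph-d to 11.9 kb, of Scm to 12.1 kb, of mor to 22.5 kb and of trx to 4.75 kb. Of the 20 regions over the 9 genes, 15 were found in both replicates and 14 with a reciprocal overlap of 50%, with no such share given for all combined regions. No paired analysis was possible because the input libraries have no region list here and no test between groups was made. Depth is unknown and sets no stated limit.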

Other observations

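No region scored below 0, which the authors type as depleted, overlapped any of the 9 genes (0 in the 3 lists together). Between ph-d and ph-p lie 2923 bp, and the strong region over the high end of ph-d reached to within 1379 bp of ph-p in the combined list and 1424 bp in replicate 1. Beyond the high end of ph-p, another region scored 2.00 began 1794 bp away, with 1.94 and 2.07 in the replicates. A weak region scored 0.35 began 1425 bp beyond the high end of trx and was in both replicate lists, with scores of 0.29 and 0.42.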
